A study of Mus musculus with 48 samples.

Results

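The calcium/calmodulin-dependent protein kinases were followed gene by gene in mouse striatum: Camk2a, Camk2b, Camk2d and Camk2g, which encode the 4 CaMKII subunits, Camk4, Camk1, Camk1d and Camk1g, which encode CaMKIV and CaMKI kinases, and Camkk1 and Camkk2, which encode the kinases upstream of these. The 10 genes were taken by symbol from the 48795 genes of the deposited count table, and all 10 passed the filter on low counts that 19975 genes passed. The rule names symbols, but the genes were selected on knowledge of the fold changes in these same comparisons, so a count of its members past a threshold describes the list and tests nothing about it.

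The study crossed the Q140 mouse, a Huntington's disease model that carries an expanded CAG repeat knocked into the Htt gene, with mice carrying mutant alleles of Msh3, which encodes a DNA mismatch repair protein. Messenger RNA of the striatum was sequenced in 48 libraries, all from C57BL/6 mice 6 months old. Q140 mice were heterozygous for the knock-in. There were 8 Q140 Msh3-/- libraries, 8 Q140 Msh3+/- libraries, 8 Q140 libraries whose labels name no Msh3 mutation, 8 Msh3-/- libraries, 9 Msh3+/- libraries and 7 wild type libraries, with 4 of each sex in every group but Msh3+/- (5 female, 4 male) and wild type (3 female, 4 male). A library is named here by its group, its sex letter and its number. The labels do not say that each library came from a separate mouse, so p-values measure the spread between these samples.

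Total counts ran from 33.7 M to 52.8 M reads per library (median 45.0 M), and the member with the fewest reads, Camk1, had at least 564 reads in every library. Msh3 reads were more abundant, not less, in libraries labelled Msh3 mutant: 118 to 135 CPM (counts scaled to library size) in Q140 Msh3-/-, 73.0 to 81.8 in Q140 Msh3+/-, 29.5 to 33.2 in Q140, 111 to 131 in Msh3-/-, 68.2 to 85.4 in Msh3+/- and 29.1 to 33.0 in wild type. The Msh3 genotypes did not overlap, but gene counts do not show whether the gene product works, so directions drawn from Msh3 genotype rest on the labels. Htt reads, which do not show the repeat length, were lower in Q140 than in wild type by 0.13 on the log2 scale (adjusted p = 0.0249, edgeR). Markers of medium spiny neurons, the main neurons of the striatum, were abundant in every library, with Ppp1r1b between 1344 and 2334 CPM. Of the 48, 3 libraries stood apart in markers of neighbouring tissue. Msh3+/- F5 had 188 CPM over 9 cortical excitatory neuron markers (group median 49.2). Q140 Msh3+/- F1 and wild type M2 had 4323 and 638 CPM over 8 choroid plexus and ependyma markers (group medians 56.2 and 50.9). Results that rest on these 3 libraries are given with and without them.

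Calcium that enters a neuron binds calmodulin, and calcium-loaded calmodulin switches on this kinase family. CaMKII is a large holoenzyme of mixed subunits that phosphorylates itself and is concentrated at excitatory synapses, where it is required for long-term potentiation. CaMKI and CaMKIV are single-subunit kinases that the kinases CaMKK1 and CaMKK2 activate by phosphorylation, with CaMKIV acting largely in the nucleus on transcription through CREB and CaMKK2 also activating the energy sensor AMPK.

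The 10 genes differed widely in level. Per unit length, as FPKM (fragments scaled to gene length and library total) averaged over the 48 libraries, Camk2a was the most abundant at 288 ± 18.1 (SD), followed by Camk2b at 177 ± 12.3 and Camk4 at 59.0 ± 7.08. Camk1d followed at 31.3 ± 2.51 FPKM, and Camkk2 (28.1 ± 2.79), Camkk1 (27.4 ± 2.93) and Camk2g (27.0 ± 2.16) lay within 1 SD of each other. Camk1g averaged 12.6 FPKM, Camk1 2.85 FPKM and Camk2d 1.37 FPKM.

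In Q140 striatum the 2 abundant CaMKII genes, Camk4, Camk1d and both CaMKK genes fell relative to wild type. The falls ran from 12.9% (Camk2a) to 25.2% (Camk4). By edgeR's quasi-likelihood test with Benjamini-Hochberg adjustment over the 19975 genes and a threshold of 0.05, 6 of the 10 genes fell and 0 rose, where 10.2% of all genes tested fell and 19.9% changed in either direction. The median log2 fold change of the 10 was -0.25, against 0.01 over all genes tested. In a bulk sample, fewer cells of a type and less RNA per cell cannot be told apart.

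**Figure D1:**
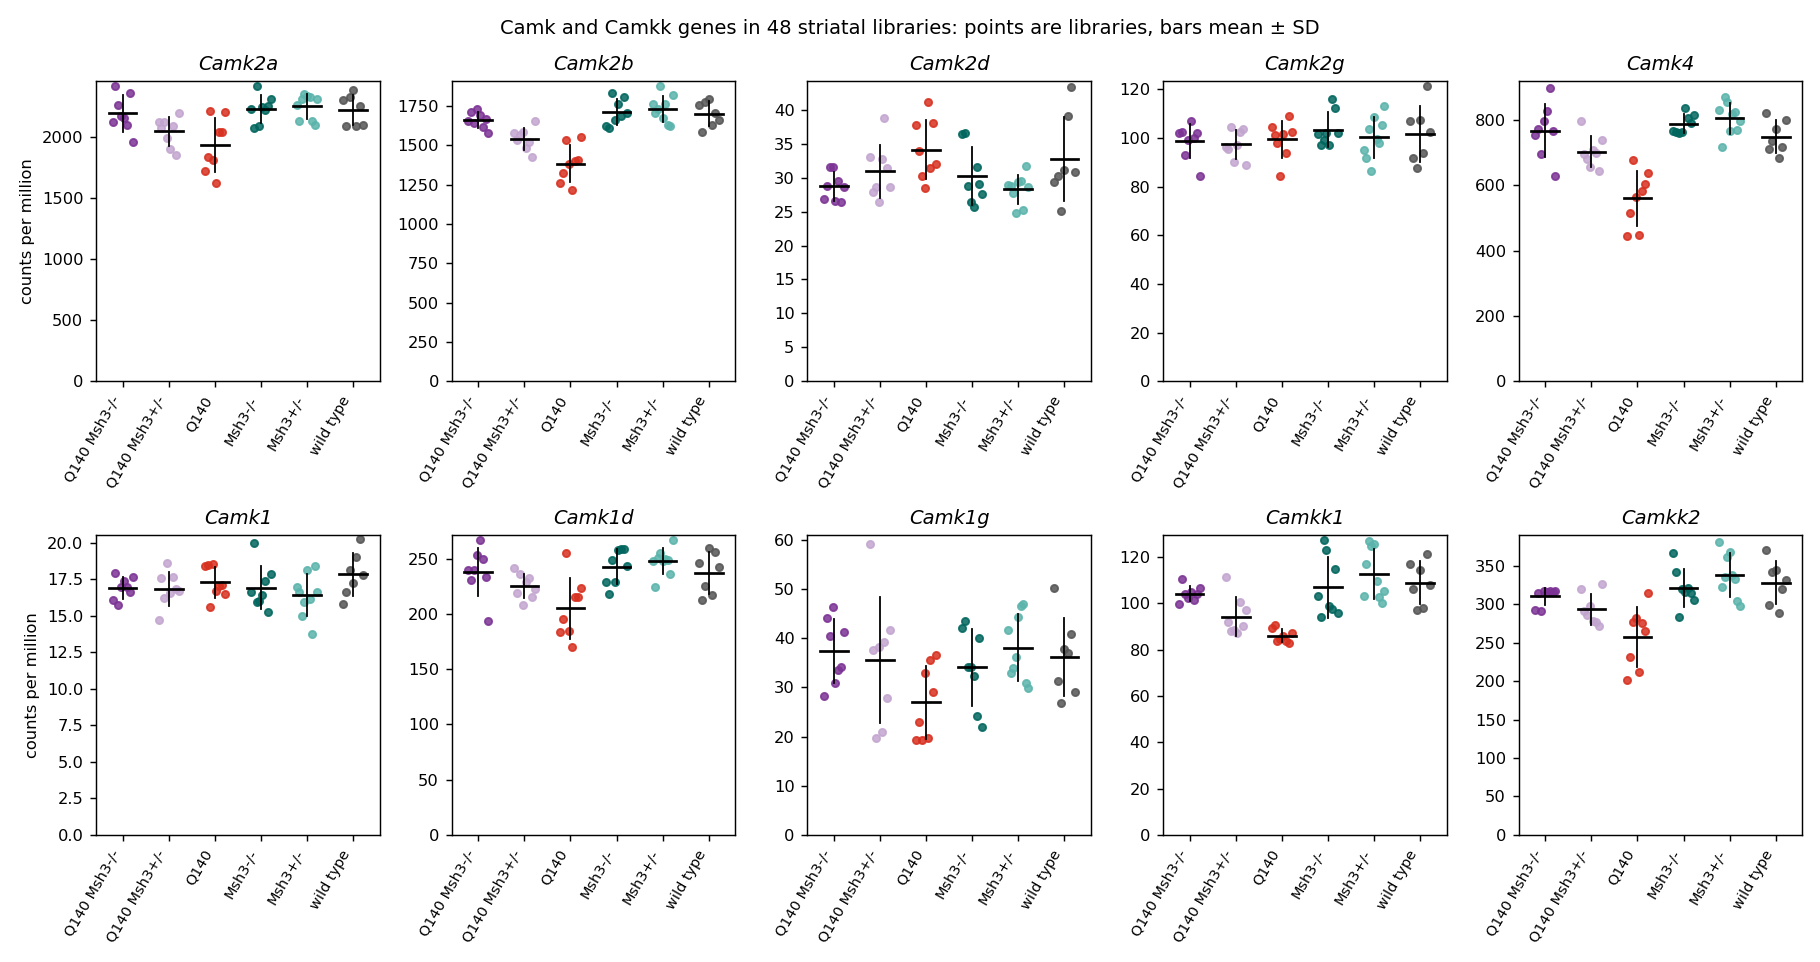
Level of each of the 10 kinase genes in the 48 libraries, as CPM on an axis from 0, with 1 point per library, a horizontal bar at the group mean and a vertical bar of 1 SD either side. The Q140 points of Camk4 lie between 445 and 679 CPM, all under the lowest wild type library at 685 CPM, while the ranges of Camk2g and Camk1 overlap across the 6 groups.

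Camk2a encodes the alpha subunit, the main CaMKII subunit of forebrain excitatory synapses. It had 1625, 1941 and 2217 CPM in Q140 libraries (lowest, median and highest), against 2093, 2257 and 2393 CPM in wild type. Its log2 fold change in Q140 was -0.20 (SE 0.0517, adjusted p = 0.00386, edgeR), and 6 of the 8 Q140 libraries lay below the lowest wild type library, so the groups overlapped. Q140 Msh3-/- libraries had 1960.2, 2168 and 2423 CPM and Q140 Msh3+/- libraries 1857, 2088 and 2203 CPM, both centred between Q140 and wild type. Without Q140, Msh3-/- libraries had 2075, 2244 and 2419.7 CPM and Msh3+/- libraries 2101, 2313 and 2354 CPM. Neighbouring group means of Camk2a never differed by more than the larger of their SDs.

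Camk2b encodes the beta subunit, which binds actin and ties the holoenzyme to the cytoskeleton of dendritic spines. It had 1217, 1391 and 1553 CPM in Q140, against 1583, 1707 and 1794 CPM in wild type. Every Q140 library was below every wild type library, a separation in this direction that 1.85% of all genes tested showed. The log2 fold change was -0.30 (SE 0.0416, adjusted p = 4.42e-07, edgeR). Q140 Msh3-/- libraries, at 1578, 1662 and 1728 CPM, lay wholly above Q140, and Q140 Msh3+/- libraries, at 1423, 1549.7 and 1656 CPM, were centred between them and overlapped both. In the order of group means, Q140 was below Q140 Msh3+/- by 158 CPM and Q140 Msh3+/- was below Q140 Msh3-/- by 119 CPM, each more than the larger SD of the pair, while Q140 Msh3-/-, wild type, Msh3-/- and Msh3+/- followed within their SDs.

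The other 2 CaMKII genes did not pass the test in Q140. Camk2g, the gamma subunit, which carries calmodulin to the nucleus, had 84.5, 102 and 109 CPM in Q140 and 87.7, 102 and 122 CPM in wild type. Its log2 fold change of -0.03 had a 95% confidence interval of -0.14 to 0.09. Camk2d, the delta subunit and the main CaMKII of heart muscle, had 28.5, 33.0 and 41.2 CPM in Q140 and 25.1, 30.9 and 43.4 CPM in wild type, with a log2 fold change of 0.07 (95% confidence interval -0.11 to 0.25). For both genes the Q140 and wild type ranges overlapped almost fully, and the intervals exclude a fall of the size estimated for Camk2b.

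Since the subunits assemble together, their proportions were set side by side as shares of the summed FPKM of the 4 CaMKII genes, with no test. Camk2a made up 59.0 ± 1.18% in Q140 and 58.0 ± 0.551% in wild type (SD, n = 8 and 7). Camk2b made up 34.5 ± 0.832% in Q140 and 36.3 ± 0.453% in wild type, and 1 of the 8 Q140 libraries (F4, 36.2%) lay inside the wild type range of 35.7 to 36.9%. Camk2g made up 6.15 ± 0.755% in Q140 and 5.35 ± 0.543% in wild type, and Camk2d 0.350 ± 0.0722% in Q140 and 0.285 ± 0.0582% in wild type. The ratio of Camk2a to Camk2b FPKM averaged 1.71 ± 0.0691 in Q140 and 1.60 ± 0.0286 in wild type, with 1.62 ± 0.0873 in Q140 Msh3-/- and 1.62 ± 0.0496 in Q140 Msh3+/-. For every subunit the mean shares in Q140 and wild type lay under 2 percentage points apart.

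**Figure D2:**
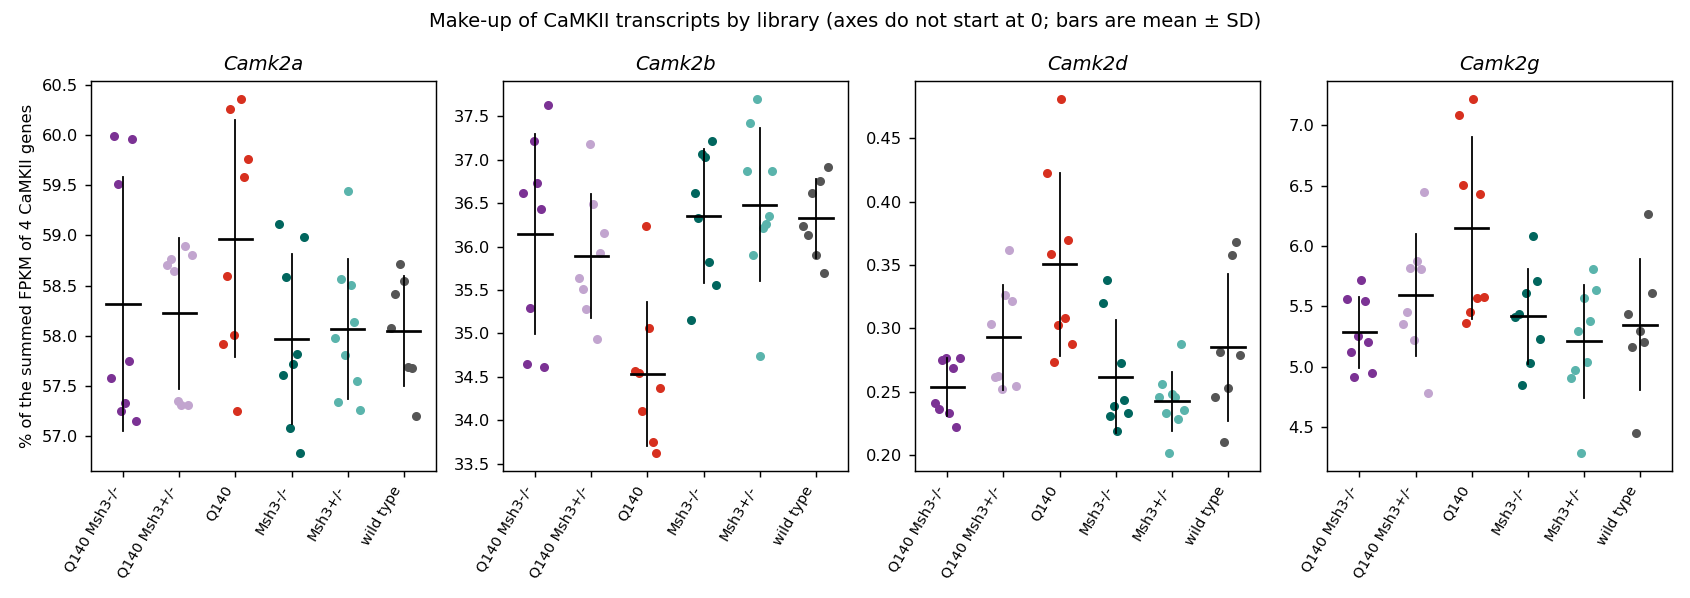
Share of each CaMKII gene in the summed FPKM of the 4, in percent, with 1 point per library, the group mean and 1 SD either side, on axes that do not start at 0. Q140 has the lowest mean Camk2b share (34.5%), and the other 5 groups lie between 35.9 and 36.5%.

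Among the single-subunit kinases, Camk4 and Camk1d passed the test. CaMKIV, its product, is a nuclear kinase that phosphorylates CREB. Camk4 had 445, 573 and 679 CPM in Q140, against 685, 735 and 822 CPM in wild type, again without overlap. The log2 fold change was -0.42 (SE 0.0651, adjusted p = 3.71e-06, edgeR). Levels were 631, 769.8 and 898 CPM in Q140 Msh3-/-, 646, 698 and 797 CPM in Q140 Msh3+/-, 760.5, 780.3 and 838 CPM in Msh3-/- and 719, 819 and 872 CPM in Msh3+/-. Q140 stood lowest, 143 CPM under the mean of Q140 Msh3+/-, which was the only gap between neighbouring group means larger than the SDs. An antisense gene, 2310026I22Rik, shares 72 exon bases with Camk4 and carried 0.0495% as many reads.

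Camk1d encodes the CaMKI delta kinase. It had 169.9, 205 and 256 CPM in Q140 and 212, 242 and 259.6 CPM in wild type, so the ranges overlapped, and its log2 fold change was -0.20 (SE 0.0594, adjusted p = 0.0107, edgeR). Levels in the other groups were 193, 239.7 and 267 CPM in Q140 Msh3-/-, 208, 226 and 241 CPM in Q140 Msh3+/-, 218, 246 and 259 CPM in Msh3-/- and 225, 249 and 267 CPM in Msh3+/-. No pair of neighbouring group means differed by more than the larger SD.

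Camk1g, the CaMKI gamma kinase, which is anchored to membranes and takes part in dendrite growth, was the most variable of the 10. It had 19.4, 26.0 and 36.6 CPM in Q140 and 26.9, 37.1 and 50.3 CPM in wild type. Its coefficient of variation was 27.7% in Q140 and 35.9% in Q140 Msh3+/-, and its log2 fold change in Q140, -0.43, had a 95% confidence interval of -0.80 to -0.05 and did not pass the adjusted threshold (adjusted p = 0.107, edgeR). The highest value of all 48 libraries, 59.1 CPM, was in Q140 Msh3+/- F1, the library high in choroid plexus markers. Camk1, the CaMKI alpha kinase, spanned 13.8 to 20.2 CPM over all libraries, with medians of 17.1 CPM in Q140 and 17.8 CPM in wild type and a log2 fold change of -0.04 (95% confidence interval -0.15 to 0.07). Camk1 shares 232 exon bases with Ogg1 on the opposite strand, a gene with 22.6% as many reads, and the sources used here do not say whether reads were assigned by strand.

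Both upstream kinases fell. Camkk1 had 83.1, 85.4 and 90.6 CPM in Q140 and 97.2, 108 and 122 CPM in wild type, with no overlap and a log2 fold change of -0.34 (SE 0.0575, adjusted p = 1.28e-05, edgeR). Its Q140 libraries were the tightest of any member in that group, with a coefficient of variation of 3.25%, against 8.55% in wild type. Camkk2 had 202, 270.2 and 314 CPM in Q140 and 289, 332 and 370.1 CPM in wild type. Its log2 fold change was -0.35 (SE 0.0652, adjusted p = 7.35e-05, edgeR), about the size of that of Camkk1, but its Q140 libraries were spread (SD 38.6 CPM, against 27.9 CPM in wild type) and the highest of them reached into the wild type range.

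In the Msh3 mutant groups, Camkk1 had 99.9, 104 and 111 CPM in Q140 Msh3-/-, 87.2, 91.1 and 111 CPM in Q140 Msh3+/-, 94.1, 101 and 127 CPM in Msh3-/- and 100.1, 109.8 and 127 CPM in Msh3+/-. Camkk2 had 291, 316 and 318 CPM in Q140 Msh3-/-, 272, 289 and 326 CPM in Q140 Msh3+/-, 284, 318 and 366 CPM in Msh3-/- and 298, 336 and 381 CPM in Msh3+/-. For both genes the means ran upward in the order Q140, Q140 Msh3+/-, Q140 Msh3-/-, Msh3-/-, wild type and Msh3+/-. The one gap beyond the larger SD was that of 9.96 CPM between Q140 Msh3+/- and Q140 Msh3-/- for Camkk1.

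How firmly the 6 falls stood differed by gene. Camk2b, Camk4 and Camkk2 passed the threshold under all 16 alternative analyses, and all 6 genes passed with any 1 library left out. Camk2a did not pass in male libraries alone (log2 fold change -0.16, adjusted p = 0.208) or with only the 15 libraries compared in the fit (-0.20, adjusted p = 0.0562), and Camkk1 not in female libraries alone (-0.30, adjusted p = 0.0569). Camk1d did not pass in 5 of the 16, with library totals in place of TMM scaling among them (-0.13, adjusted p = 0.0602). That scaling called 5076 genes higher and 1104 lower over all genes, where TMM called 1926 higher and 2043 lower, and under it 5 of the 10 members still fell and 0 rose. No member that passed changed direction under any alternative.

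The Q140 libraries differed among themselves, and 5 of the 6 genes did so together. Q140 M1 and F1 were the lowest pair for Camk2a, Camk2b, Camk4, Camk1d and Camkk2: Camk4, for instance, was at 449 CPM in M1 and 445 in F1, and Camkk2 at 212 and 202 CPM. Q140 M4 and F3 were the highest pair for Camk2a, Camk2b, Camk4 and Camk1d. Relative to the wild type mean, Q140 libraries ran from 73.0 to 99.6% for Camk2a, 71.5 to 91.3% for Camk2b, 59.4 to 90.6% for Camk4, 71.7 to 108% for Camk1d and 61.5 to 95.9% for Camkk2. Camkk1 went its own way, from 76.3 to 83.2%, with its highest values in F2 and F1.

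The summed level of 13 medium spiny neuron markers moved with the same libraries. It ran from 7941 CPM in Q140 M1 and 8072 in F1 to 11144 in F3 and 12013 in M4, against 14025 to 15933 CPM in wild type, and 12 of the 13 markers fell in Q140 and 1 rose. The sum was 11965 to 13984 CPM in Q140 Msh3-/- and 10808 to 13049 CPM in Q140 Msh3+/-. The part of these markers in the kinase results was not tested. Of all genes tested, 10.2% fell in Q140 against wild type and 9.64% rose. Of other cell types, 4 of 8 astrocyte markers fell (summed level 3362 to 4243 CPM in Q140, 4532 to 4908 in wild type). Most of that sum was 1 gene, Slc1a2, with a median of 3474 CPM over all libraries. In addition, 4 of 8 endothelial and mural, 2 of 8 microglial and 2 of 8 interneuron markers fell. So did 1 of 8 oligodendrocyte and 1 of 8 choroid plexus and ependyma markers, near the share of all genes tested. Of the 9 cortical excitatory neuron markers tested, 2 rose. Of the markers, 4 were at 0 in some libraries: Neurod1 in 7, Kcnj13 in 5, and Tmem212 and Ccdc153 in 1 each.

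**Figure D3:**
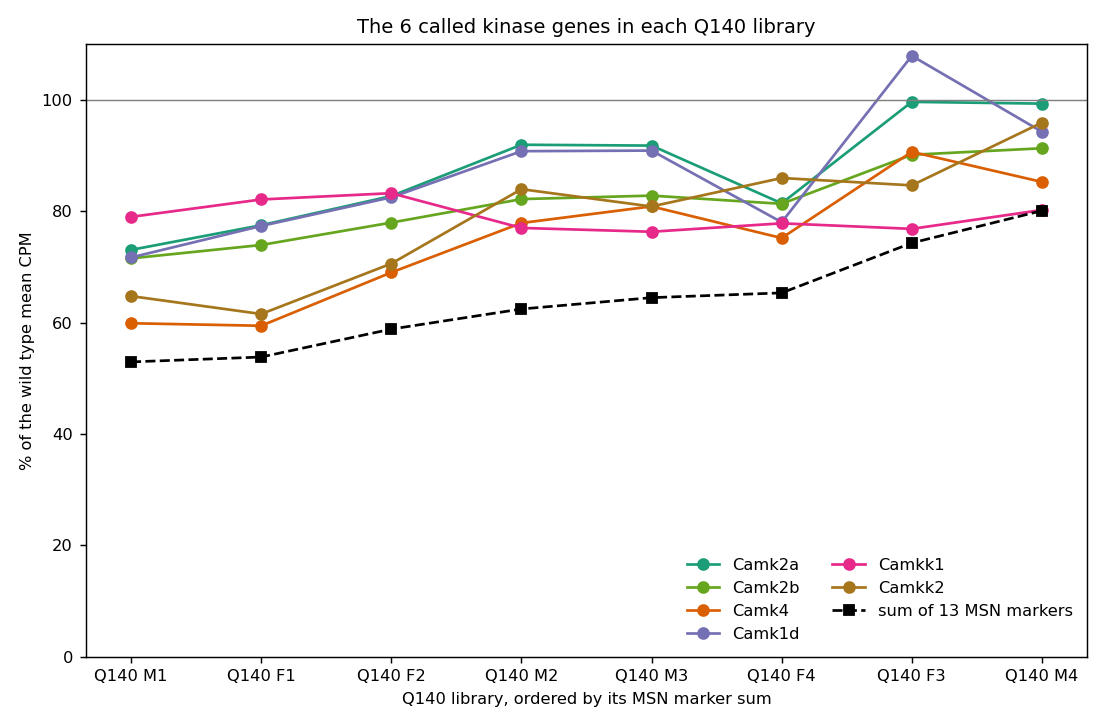
The 6 genes that fell in Q140 and the summed medium spiny neuron (MSN) markers in each of the 8 Q140 libraries, as a percentage of the wild type mean CPM (grey line at 100%), ordered by the marker sum. Camk4 and Camkk2 are near 60% in M1 and F1, while Camkk1 stays between 76.3 and 83.2% throughout.

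The promoters of 4 genes that fell are shown because all 4 were lower in Q140 and because CaMKIV acts on transcription through CREB. The RefSeq promoter table for GRCm38.p6, with 250 bases before to 50 bases after each start, held 7 of the 10 genes. In the sequences, written 5′ to 3′ on the strand of the gene, capitals mark matches on either strand to TGACG, the core of the cAMP response element that CREB binds, or to GCGNGGGCG. The latter is a loose form of the site of the activity-induced EGR factors. Its N was allowed to be any base, so a match need not be such a site.
Camk2b (chr11:6065699-6065998, minus strand): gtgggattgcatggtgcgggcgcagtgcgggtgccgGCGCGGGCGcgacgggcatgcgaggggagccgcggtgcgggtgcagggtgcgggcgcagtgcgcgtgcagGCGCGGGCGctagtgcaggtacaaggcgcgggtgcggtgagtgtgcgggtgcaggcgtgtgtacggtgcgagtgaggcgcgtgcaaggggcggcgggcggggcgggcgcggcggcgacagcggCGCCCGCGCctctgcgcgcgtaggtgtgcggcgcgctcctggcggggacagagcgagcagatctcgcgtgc
Camkk1 (chr11:73018738-73019037, plus strand): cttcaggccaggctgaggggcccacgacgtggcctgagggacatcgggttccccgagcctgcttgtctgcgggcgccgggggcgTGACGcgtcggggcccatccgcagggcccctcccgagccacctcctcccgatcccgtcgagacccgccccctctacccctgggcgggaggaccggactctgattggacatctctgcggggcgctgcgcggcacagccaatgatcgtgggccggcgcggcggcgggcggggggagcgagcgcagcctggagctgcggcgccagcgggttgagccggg
Camkk2 (chr5:122779361-122779660, minus strand): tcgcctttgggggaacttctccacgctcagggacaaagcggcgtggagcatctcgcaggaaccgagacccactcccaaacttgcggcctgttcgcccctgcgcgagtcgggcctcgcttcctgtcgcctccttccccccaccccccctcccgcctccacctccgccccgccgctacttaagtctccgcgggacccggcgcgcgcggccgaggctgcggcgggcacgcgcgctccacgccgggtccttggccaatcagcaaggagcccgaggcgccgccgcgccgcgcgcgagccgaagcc
Camk1d (chr2:5714713-5715012, minus strand): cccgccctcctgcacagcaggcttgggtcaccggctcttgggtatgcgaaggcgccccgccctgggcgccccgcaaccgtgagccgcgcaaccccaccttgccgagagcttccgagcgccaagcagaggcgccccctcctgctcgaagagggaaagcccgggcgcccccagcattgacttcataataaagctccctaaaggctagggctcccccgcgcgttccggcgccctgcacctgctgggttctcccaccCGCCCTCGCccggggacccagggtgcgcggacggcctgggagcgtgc

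The Camk2b promoter held 3 GCGNGGGCG matches, a motif found in 5.55% of the 32851 promoters in the table, and was 77.3% G or C, where the median promoter was 52.7%. That of Camk1d held 1 such match, and its second listed promoter (chr2:5675997-5676296) held none. Camkk1 held 1 TGACG match, found in 20.8% of promoters, and Camkk2 held neither. Camk1, which did not pass the test in Q140, also held 1 TGACG match, and none of the 7 genes held the full TGACGTCA element, found in 1.79% of promoters. GCGNGGGCG shares letters with the GC box GGGCGG, found in 35.7% of promoters, and such matches are counts of letters, not of bound factors. Camk2a and Camk4 lie on chromosome 18, and no sequence is shown for them.

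The Q140 effect was then compared between Msh3 backgrounds. On the Msh3+/- background, 4 of the 10 genes fell and 0 rose, where 3.49% of all genes tested fell and 6.45% changed in either direction: Camk2b by 0.17 on the log2 scale (SE 0.0392, adjusted p = 0.00526, edgeR), Camk4 by 0.20 (adjusted p = 0.0392), Camkk1 by 0.25 (adjusted p = 0.00199) and Camkk2 by 0.20 (adjusted p = 0.036). Camk2a and Camk1d, both at -0.14, did not pass (adjusted p = 0.082 and 0.144). On the Msh3-/- background, 0 of the 10 genes passed in edgeR, 0 had an unadjusted p under 0.05 and 0 passed in DESeq2, where 0.0751% of all genes tested passed. There the estimates for the 10 lay between -0.08 (Camk2d) and 0.14 (Camk1g). The 95% confidence intervals for Camk2b (-0.12 to 0.04), Camk4 (-0.17 to 0.09), Camkk1 (-0.15 to 0.08) and Camkk2 (-0.18 to 0.08) did not reach the falls estimated in Q140 against wild type. Those falls carry errors of their own, so this is no test of a difference, which the interaction given below is.

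The 4 calls on the Msh3+/- background differed in how often they passed. Camkk1 passed in 15 of the 16 alternatives, the exception being male libraries alone (-0.15, adjusted p = 0.34, edgeR). Camk2b passed in 13, and did not with plate row (-0.15, adjusted p = 0.0501), in females (-0.16, adjusted p = 0.127) or in males (-0.17, adjusted p = 0.318). Of all genes tested, 6.45% passed in the reported fit, 2.77% with plate row, 1.88% in females and 0.387% in males. Camk4 and Camkk2 passed in 7 and 6 of the 16 alternatives and, with 1 library left out, in 4 and 7 of 17 cases. Without the 3 libraries that stood apart, 3 of the 10 genes fell, with Camkk2 at -0.20 and no longer past the threshold. In that fit 558 of 20083 genes fell. Library totals called 1796 genes higher and 413 lower over all genes in this comparison, where TMM called 592 higher and 697 lower, and left 2 members lower.

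**Figure D4:**
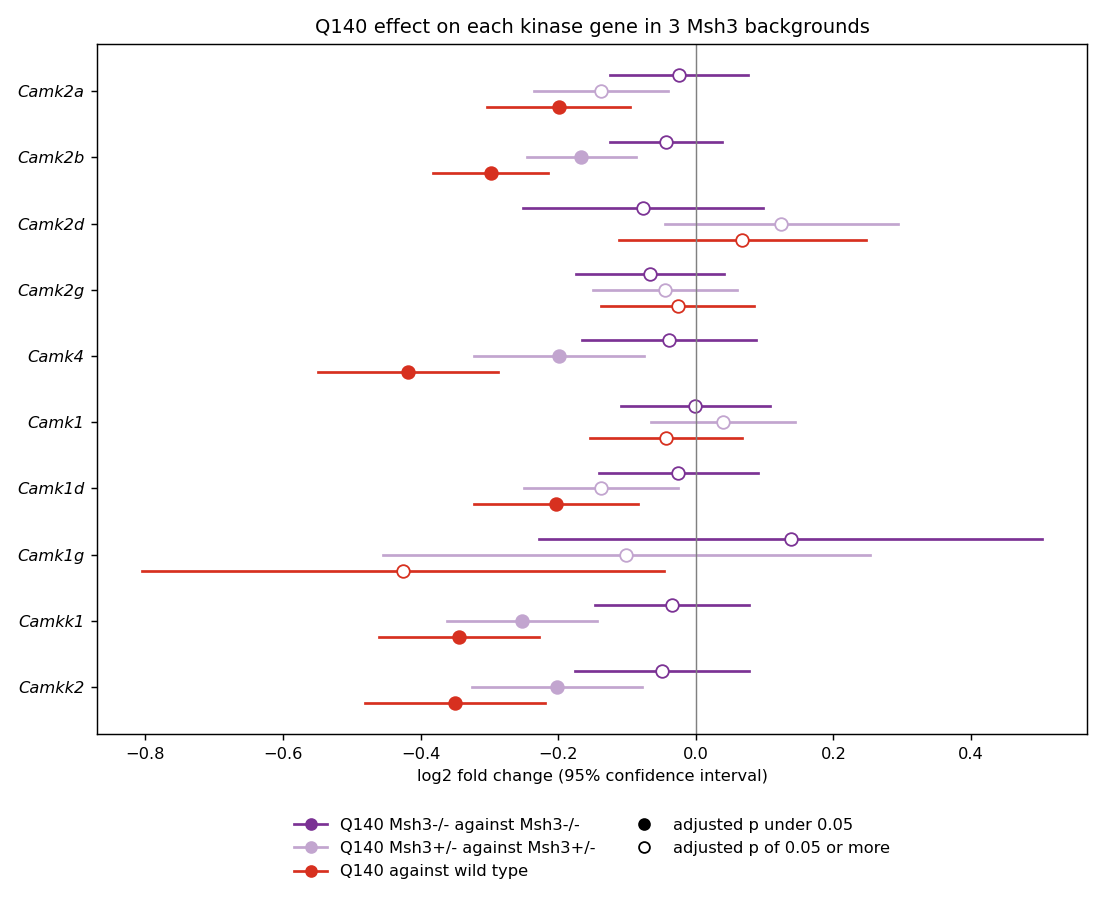
Log2 fold change of each kinase gene in Q140 against its Msh3-matched libraries, for the 3 Msh3 genotypes, with 95% confidence intervals; filled points passed an adjusted p of 0.05. The estimates for Camk2b, Camk4, Camkk1 and Camkk2 are filled for Q140 against wild type and on Msh3+/-, and on Msh3-/- every point is open.

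The test of the difference between these effects is the interaction of Q140 with Msh3 genotype. It contains the same Q140 and wild type libraries as Q140 against wild type, so it is not independent of that comparison. The genes were also chosen with earlier results of these data known. Against the Msh3-/- background, 3 of the 10 genes had an interaction above 0 and 0 below, where 1.67% of all genes tested had one above 0 and 2.39% one in either direction: Camk2b (0.25, SE 0.0579, adjusted p = 0.0104, edgeR), Camk4 (0.38, SE 0.0906, adjusted p = 0.015) and Camkk1 (0.31, SE 0.08, adjusted p = 0.026). Camkk2 reached 0.30 with an adjusted p of 0.0599 in edgeR and 0.0268 in DESeq2. Camk2a (0.17, 95% confidence interval 0.03 to 0.32), Camk1d (0.18, 0.01 to 0.34) and Camk1g (0.56, 0.04 to 1.09) did not pass after adjustment. Against the Msh3+/- background, 0 of the 10 passed in edgeR, where 0% of all genes tested passed, 2 had an unadjusted p under 0.05 (Camk2b at 0.13 and Camk4 at 0.22), and 0 passed in DESeq2. An estimate for Msh3+/- that lies between those for the other genotypes is therefore not shown to differ from Q140 against wild type.

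With the plate row of the well address added as a covariate, none of the 3 interactions with Msh3-/- passed in edgeR, and the estimates were 0.22 for Camk2b, 0.34 for Camk4 and 0.33 for Camkk1 (adjusted p = 0.151, 0.141 and 0.115). Of all genes tested, 0.32% had a called interaction in either direction with plate row, against 2.39% without it. The Camkk1 interaction was also lost with library totals (0.24, adjusted p = 0.0633), a scaling that over all genes called 254 interactions above 0 and 775 below, where TMM called 334 above and 144 below.

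Q140 mice were also compared with each other by Msh3 genotype. These comparisons use the same 8 Q140 libraries as that of Q140 with wild type, so they are not independent of it. In Q140 Msh3-/- libraries 6 of the 10 genes were higher than in Q140 and 0 lower, where 6.85% of all genes tested were higher and 11.9% differed in either direction. Camk4 rose by 0.46 on the log2 scale (SE 0.0631, adjusted p = 1.70e-06, edgeR), Camkk1 by 0.28 (SE 0.0557, adjusted p = 4.77e-04), Camkk2 by 0.27 (adjusted p = 0.00273) and Camk2b by 0.26 (SE 0.0403, adjusted p = 1.01e-05). Camk1d rose by 0.22 (adjusted p = 0.00871) and Camk2a by 0.18 (adjusted p = 0.012). For Camk2b and Camkk1 every Q140 Msh3-/- library was above every Q140 library, which was so in that direction for 0.436% of all genes tested. For Camk4 the ranges overlapped, since Q140 Msh3-/- M4, at 631 CPM, was below the highest Q140 library.

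Q140 Msh3-/- M4 was the lowest of its group for Camk2a, Camk2b, Camk2g, Camk4 and Camk1d. The Camk2d estimate had the opposite sign. It had 26.4, 28.7 and 31.7 CPM in Q140 Msh3-/- and 28.5, 33.0 and 41.2 CPM in Q140, a log2 fold change of -0.25 that edgeR placed just outside the threshold (adjusted p = 0.052) and DESeq2 inside it (-0.24, adjusted p = 0.0363). It was called lower in 8 of the 16 alternatives. Camk1g had a log2 fold change of 0.47 that did not pass (adjusted p = 0.0906, edgeR; 0.0557, DESeq2). Camk1 (-0.03) and Camk2g (-0.01) had intervals of -0.14 to 0.08 and -0.12 to 0.10.

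In single-sex fits 3 of the 10 genes were higher in each sex, where 3.71% of all genes tested differed in either direction in females and 2.82% in males. With only the 16 libraries compared in the fit Camk2a and Camk1d were lost (Camk1d at 0.21, adjusted p = 0.0895). Library totals called 804 genes higher and 3463 lower over all genes, where TMM called 1368 higher and 1006 lower, with 6 members higher and 1, Camk2d, lower.

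In Q140 Msh3+/- libraries 2 of the 10 genes were higher than in Q140 and 0 lower, where 1.28% of all genes tested were higher and 1.98% differed in either direction: Camk4 by 0.33 (SE 0.0631, adjusted p = 0.00483, edgeR) and Camk2b by 0.16 (SE 0.0403, adjusted p = 0.0309). Camkk2 (0.19), Camkk1 (0.13) and Camk1d (0.14) had intervals above 0 but adjusted p of 0.104, 0.214 and 0.217. Q140 Msh3+/- F1, high in choroid plexus markers, was the highest of its group for Camk4, Camk1d, Camk1g and Camkk1. Without the 3 libraries that stood apart Camk4 was at 0.30 (adjusted p = 0.0206) and Camk2b at 0.16 (adjusted p = 0.0676), and with only the 16 libraries compared in the fit neither passed (adjusted p = 0.118 and 0.197). Over all genes, 395 of 19975 passed in the reported fit. Without the 3 libraries 105 of 20083 passed, and with only the 16 libraries 4 of 18901. Library totals called 229 genes higher and 495 lower, where TMM called 256 higher and 139 lower; under library totals Camk4 was at 0.30 (adjusted p = 0.0022) and Camk2b at 0.12 (adjusted p = 0.0252).

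Between the Msh3 mutant Q140 groups, 0 of the 10 genes differed in edgeR and 0 in DESeq2 (Q140 Msh3-/- against Q140 Msh3+/-; 0.015% of all genes tested passed), and 4 had an unadjusted p under 0.05. Those were Camk2a at 0.10, Camk2b at 0.11, Camk4 at 0.13 and Camkk1 at 0.15, all higher in Q140 Msh3-/-. The share of all genes at that unadjusted threshold is not given here, so the 4 are no result about the list. A difference of up to 0.26 for Camkk1 and 0.25 for Camk4 lies within the 95% confidence intervals.

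Without Q140, no called difference was found in any of the 10 genes between Msh3 genotypes. In Msh3-/- against wild type 0 genes passed in edgeR and in DESeq2 and 0 had an unadjusted p under 0.05, where 0.03% of all genes tested passed. The intervals for the 3 genes of the interaction were -0.08 to 0.09 for Camk2b, -0.06 to 0.21 for Camk4 and -0.15 to 0.08 for Camkk1. In Msh3+/- against wild type 0 passed in either tool, where 0.01% of all genes tested passed, and 2 had an unadjusted p under 0.05, Camk2d at -0.20 and Camk1 at -0.12. Over the 6 groups, no difference between male and female libraries passed in the 10 genes (0 passed in edgeR and 0 in DESeq2; 2.93% of all genes tested passed), and the 1 gene with an unadjusted p under 0.05 was Camk2g, 0.07 higher in males.

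Partners of the kinases were examined in 8 lists of 43 genes, drawn up like the kinase list with earlier results known. In Q140 against wild type 20 of the 43 fell and 1 rose, where 10.2% of all genes tested fell. Of the calmodulin genes reported here, Calm2 fell by 0.17 on the log2 scale (adjusted p = 0.0114, edgeR) and Calm3 by 0.11 (adjusted p = 0.0339). With library totals neither Calm2 nor Calm3 passed, and over the 16 alternatives Calm2 passed in 10 and Calm3 in 7.

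Of the proteins that hold calmodulin in reserve, Pcp4 fell by 0.53 (adjusted p = 1.88e-06, edgeR), Nrgn by 0.25 (adjusted p = 0.0401) and Pcp4l1 by 0.18 (adjusted p = 0.0105), while Gap43, a protein of growing axons, rose by 0.24 (adjusted p = 6.94e-04). Pcp4 was at 300.3, 353 and 463 CPM in Q140 and 481, 520.1 and 582 CPM in wild type, with no overlap. The CaMKII inhibitor gene Camk2n1 fell by 0.40 (adjusted p = 8.42e-07), with 797, 962 and 1135 CPM in Q140 and 1125, 1274 and 1479 CPM in wild type, so its lowest wild type library lay just under the highest of Q140. The other inhibitor gene, Camk2n2, had a log2 fold change of 0.23 that did not pass (adjusted p = 0.0762).

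Of 10 postsynaptic partners or substrates of CaMKII, 8 fell. Of all genes tested 10.2% fell, the share to set beside each count given here. Shank3, a scaffold of the postsynaptic density, fell by 0.50 (adjusted p = 1.54e-08, edgeR), Grin2b, the NMDA receptor subunit that binds CaMKII, by 0.27 (adjusted p = 7.30e-04), Actn2, an actin crosslinker, by 0.26 (adjusted p = 8.44e-04) and Dlg4, which encodes PSD-95, by 0.25 (adjusted p = 1.31e-05). Of 7 genes of calcineurin, the calcium-activated phosphatase, and its regulators, 2 fell: Ppp3ca by 0.42 (adjusted p = 2.05e-07) and Ppp3r1 by 0.25 (adjusted p = 1.86e-04), the main catalytic and regulatory subunits. Of 2 phosphatases that switch off CaM kinases, Ppm1f fell by 0.24 (adjusted p = 1.07e-05). Of 6 other calmodulin-regulated or related kinases, 1 fell, the pseudokinase gene Camkv, by 0.30 (adjusted p = 5.44e-07).

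Of 9 substrates of CaMKI, CaMKIV or CaMKK, 1 fell, near the 10.2% of all genes tested that fell. It was the CREB coactivator gene Crtc1, lower by 0.15 (adjusted p = 0.013, edgeR). The estimates of the other 8 lay between -0.04 (Hdac5) and 0.05 (Syn1), both named after their values were seen. Phosphorylation of these proteins was not measured.

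**Figure D5:**
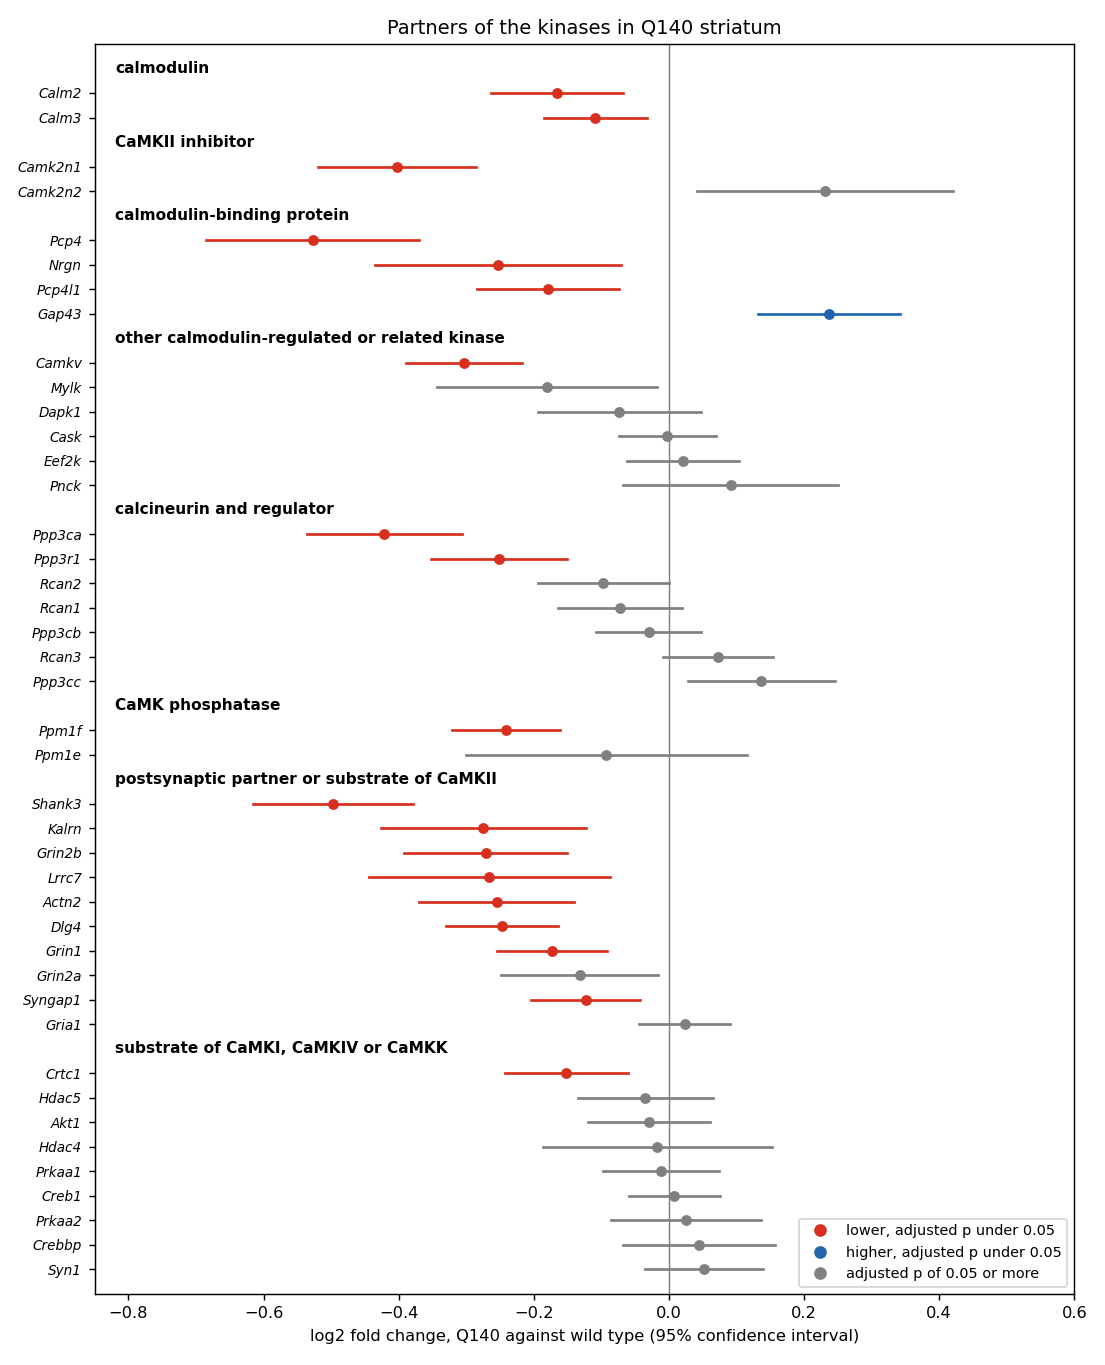
Log2 fold change in Q140 against wild type of the partner genes reported here, in 8 lists, with 95% confidence intervals; red marks genes that fell, blue the 1 that rose and grey those that did not pass an adjusted p of 0.05. Calm2, Calm3 and 8 of the 10 postsynaptic partners are red, and 8 of the 9 substrates at the bottom are grey.

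In Q140 Msh3-/- against Q140, which uses the same Q140 libraries, 15 of the 43 partner genes were higher and 1 lower, where 6.85% of all genes tested were higher. Shank3 rose by 0.34 (adjusted p = 4.83e-05, edgeR), Ppp3ca by 0.32 (adjusted p = 5.12e-05), Camk2n1 by 0.31 (adjusted p = 1.23e-04) and Camkv by 0.25 (adjusted p = 4.15e-05), while Camk2n2 fell by 0.37 (adjusted p = 0.00422). On the Msh3-/- background Q140 changed 0 of the 43 in edgeR, where 0.0751% of all genes tested passed, and 2 had an unadjusted p under 0.05. Without Q140, 0 of the 43 passed in Msh3-/- against wild type, with 0 at an unadjusted p under 0.05, and 0 in Msh3+/- against wild type, with 3. Of all genes tested, 0.03% passed in Msh3-/- against wild type and 0.01% in Msh3+/- against wild type. Counts of 0 among 43 genes are near these shares and are no result about the partners.

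For the members whose 6 group means spanned at least 0.3 on the log2 scale, the genes with the nearest pattern over these 6 means were found among 12289 expressed genes, by the root mean square difference of means centred on their average. For Camk2b they were Cep126, Ypel2 and Grm3 (differences of 0.00674 to 0.0108), for Camk4 Crybg3, Wipf3 and Dpy19l3 (0.0187 to 0.0241), for Camkk1 Agfg2, Ctxn1 and Rragd (0.0117 to 0.0158), for Camkk2 Pard3 and Gpr158 (0.00731 and 0.00981) and for Camk1g Etv5, Nwd2 and Stc1 (0.0378 to 0.0396). The other 5 members spanned less and were not matched.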

How the data were processed

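Striatal RNA of 48 libraries was extracted with a Qiagen RNeasy kit and made into Illumina TruSeq stranded libraries, per the labels' protocols. The authors deposited whole-number read counts per gene and, in a second table, FPKM values; STAR 2.7.5c, SAMtools 1.10, HTSeq 0.12.3 and the mouse builds GRCm38 and mm10 are named, per the submitters' processing notes, and the strand setting and annotation release are not given in the sources used here. The deposited FPKM equalled count over length and library total to within rounding.

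From the counts, edgeR 4.0.16 (R 4.3.3) was run with filterByExpr (minimum count 10, minimum total 15), which kept 19975 genes; the 28820 others held 0.0383% of counts. TMM factors (0.956 to 1.09), robust quasi-likelihood fits of 6 group means plus sex over all 48 libraries, and Benjamini-Hochberg adjustment over all genes tested followed, with a threshold of 0.05. Counts at an unadjusted p under 0.05 are given without the share of all genes at it, so they are not read as results. CPM values use TMM-scaled library sizes, and the biological coefficient of variation was 10.3%. The code was tested on simulated data. Counts bound the precision by sampling and by the spread between libraries. No library columns were identical.

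Alternatives were other scalings (RLE, library totals), DESeq2 1.42.0, limma 3.58.1 on log2(FPKM + 0.1) and log2(FPKM + 1), other filters, covariates (sex left out, plate row or column from the well address, replicate number), one sex, only the groups compared, each library left out in turn and, added after seeing the data, 3 libraries high in other tissues' markers left out. The genes and lists were chosen with earlier results of these data known. All 10 kinase genes are reported, and of each partner list up to 4 called genes by smallest p, apart from items that are not reported here. Gene coordinates are not printed; promoters are from RefSeq (GRCm38.p6). Figures were drawn with matplotlib 3.10.9 (Python 3.11.15).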

Additional observations from a re-analysis of the deposited data

Results flagged for a closer look

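In 3 genes the interaction of Q140 with Msh3-/-, a test of the difference in Q140 effect between Msh3 backgrounds, passed in edgeR's quasi-likelihood test. The interaction was 0.25 on the log2 scale for Camk2b (adjusted p = 0.0104), 0.38 for Camk4 (adjusted p = 0.015) and 0.31 for Camkk1 (adjusted p = 0.026). Of all genes tested, 1.67% had a called interaction above 0. The number of kinase genes passing was 0 with plate row as a covariate, 0 in females and 1 in males. The share of all genes tested passing in either direction fell as well. It was 2.39% in the reported fit, 0.32% with plate row, 0% in females and 0.332% in males. The genes were chosen with earlier results known, and the interaction uses the libraries of Q140 against wild type. Summed medium spiny neuron markers had medians of 13285 CPM in Q140 Msh3-/-, 9519 in Q140, 15221 in Msh3-/- and 15214 in wild type, and their part in the result was not tested. Among the 60 combinations of a kinase gene and a group, 0 libraries stood apart from the rest of their group by Dixon's criterion, where chance gives about 3.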

How the results depend on the processing

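No direction of a called gene reversed under any alternative. The number of kinase genes called was within 1.5 times the reported one in all comparisons but 4. For Q140 Msh3+/- against Msh3+/- (4 reported) it was 2 with library totals, 2 without a count filter, 2 with the replicate block, 1 with plate row, 2 with limma on log2(FPKM + 0.1), 2 on log2(FPKM + 1), 2 on log2(FPKM + 0.1) without a filter, 1 in females and 0 in males. Of all genes tested, 6.45% passed in either direction in the reported fit. The share was 11.1% with library totals, 2.78% without a count filter, 5.04% with the replicate block and 2.77% with plate row. It was 12.9%, 12.8% and 4.59% in the limma fits, in the order given, 1.88% in females and 0.387% in males. For Q140 Msh3+/- against Q140 (2 reported) the number of kinase genes was 1 without a count filter, 0 in females, 0 in males, 1 without the 3 libraries that stood apart and 0 with only the groups compared. Over all genes, 395 of 19975 passed in the reported fit and 211 of 35140 without a count filter. In females 9 of 20159 passed and in males 3 of 19891. Without the 3 libraries 105 of 20083 passed, and with only the groups compared 4 of 18901. For Q140 Msh3-/- against Q140 (6 reported) the number of kinase genes was 3 in females and 3 in males. Of all genes tested, 11.9% passed in the reported fit, 3.71% in females and 2.82% in males. For the interaction with Msh3-/- (3 reported) the number of kinase genes was 0 with plate row, 0 in females and 1 in males. Of all genes tested, 2.39% passed in the reported fit, 0.32% with plate row, 0% in females and 0.332% in males. Fits of one sex or of only the groups compared hold fewer libraries by construction; for the other settings the cause was not tested.

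With each library left out in turn, the count stayed at 6 for Q140 against wild type. It ran from 2 to 4 for Q140 Msh3+/- against Msh3+/-, reaching 2 without Q140 Msh3+/- F2, F3, M1, M2 or M3 or Msh3+/- F1, F3, F4, F5 or M1. It ran from 1 to 3 for Q140 Msh3+/- against Q140, with 1 without Q140 F1, F2 or M1 or Q140 Msh3+/- F1 or M4, and 3 without Q140 F3 or M4. It ran from 6 to 8 for Q140 Msh3-/- against Q140, and from 3 to 4 for the interaction. Without Q140 M4, Camk2d (-0.27, adjusted p = 0.0385, edgeR) and Camk1g (0.55, adjusted p = 0.0403) were added to Q140 Msh3-/- against Q140.

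Replicate numbers were not taken to pair the samples, since in no comparison did every pair of same-numbered libraries correlate over 0.1. Between Q140 and wild type they correlated at -0.216 to 0.191, with 3 of 7 over 0.1 and 2 of 7 closest to their own number. Between Q140 Msh3+/- and Q140 they correlated at -0.113 to 0.359, with 5 of 8 over 0.1 and 6 of 8 closest to their own number, a hint from the data and not from the design. Some libraries, within and between groups, share a stem in their column names; the labels do not say what it marks, and it was not modelled. With the replicate block 6 genes were called in Q140 against wild type, 6 in Q140 Msh3-/- against Q140, 2 in Q140 Msh3+/- against Q140 and 3 in the interaction with Msh3-/-. Of all genes tested, 18.8%, 11.9%, 1.72% and 2.38% passed there, in the same order.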
